A study of Mus musculus with 16 samples.

Results

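Wtap and Mettl16 encode proteins that take part in writing N6-methyladenosine (m6A) on RNA, and their own transcripts are among those with differentially methylated (DM) sites between wild type livers and livers in which Mettl14 was deleted in hepatocytes. Rows were taken by gene name from the authors' list of DM sites, which had been selected on the p value of their test between genotypes, so that the presence of a site on the list is itself the readout and is not tested again here. The list holds 622 sites under 586 gene names, and 4 of these sites are described below, 3 in Wtap and 1 in Mettl16. The sites come from m6A-seq of 4 wild type mice (Albumin-Cre;Mettl14+/+) and 4 liver-specific Mettl14 knockout mice (Albumin-Cre;Mettl14 flox/flox), and each liver gave 1 INPUT and 1 m6A-IP library, 16 in all. The albumin promoter, which drives Cre in all 8 mice, is active in hepatocytes, so other liver cells of the knockout may keep Mettl14. All 8 mice had been fed a 42% high-fat diet for 3 months. Their age is not given in the sources used here. In m6A-seq, mRNA fragments are pulled down with an antibody against m6A (IP) and sequenced beside the fragments before the pull-down (INPUT). The list gives positions and no value per mouse, so the depth and the spread between mice are unknown here and no test between the genotypes could be run. The level of Mettl14 itself could not be checked for the same reason, and in bulk liver fewer cells of a type and less RNA per cell cannot be told apart.

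Most m6A on mRNA is made by a complex in which METTL3 is the catalytic subunit and METTL14 holds the RNA substrate. WTAP carries no methyltransferase activity itself. It binds the METTL3-METTL14 pair, brings it to nuclear speckles and joins it to further partners such as VIRMA and ZC3H13. METTL16 is a separate methyltransferase that acts alone on structured RNAs, among them the U6 small nuclear RNA and the transcript of Mat2a, the gene of an S-adenosylmethionine synthetase. The mark is typically found in the sequence RRACH, where R stands for a purine (A or G) and H for any base but G, and it is concentrated near stop codons and in long last exons.

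The 3 Wtap sites lie on 2 alternative 3′ ends of the gene. Coordinates are those of mm10 (GRCm38), counted from 1, and Wtap is on the minus strand of chromosome 17. The first site, called the long-end site here, runs from 12967544 to 12967593 and lies in the CDS, in exon 8 of 8 of the coding transcripts Wtap-201 and Wtap-203. The other 2 sites, called short-end sites A and B, run from 12975226 to 12975275 and from 12975126 to 12975175. They lie in the 3′UTR, in exon 6 of 6 of the coding transcripts Wtap-204 and Wtap-205, and in the intron after exon 6 of Wtap-201 and Wtap-203. The Mettl16 site is on the plus strand of chromosome 11 from 74817605 to 74817654. It lies in the CDS, in exon 11 of 11 of Mettl16-201 and in exon 10 of 10 of Mettl16-205. Each of the 4 sites is a single block of 50 nt, the bin size used by the authors, and no other annotated gene overlaps any of them.

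The sequences of the sites are shown for their candidate m6A motifs, of which the Mettl16 site has none. They were read from GRCm38 on the transcript strand, 5′ to 3′, with RRACH matches in capitals. The CDS sites are shown whole, and of each short-end site a stretch of 30 nt is shown.
Wtap long-end site, chr17:12967544-12967593: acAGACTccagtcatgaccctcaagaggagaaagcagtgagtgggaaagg
Wtap short-end site A, positions 1 to 30, chr17:12975246-12975275: agtcaAGACTtccctgacagtcccacctcg
Wtap short-end site B, positions 21 to 50, chr17:12975126-12975155: cttgtaatggttaatgtaAAACTtagcaga
Mettl16 site, chr11:74817605-74817654: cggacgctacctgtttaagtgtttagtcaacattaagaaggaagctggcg
The long-end site thus starts with an AGACT match from its position 3, and short-end site A has AGACT from position 6. Site A has a further match, GGACA from position 45, outside the stretch shown. The single match of site B is AAACT from position 39. The Mettl16 sequence has no capitals, since its GGAC from position 2 is followed by G, which RRACH does not allow.

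The 2 ends of Wtap share their coding sequence up to, and part at, the end of exon 6, which is 179 nt long when it is spliced to exon 7. In Wtap-204 the splice site is not used and the same exon runs on to 2790 nt as the last exon, and in Wtap-205 it runs on to 1923 nt. The sequence across this point is shown because the stop codon of the short form lies in it, in capitals. Its first 17 bases are the end of exon 6 and the other 13 bases are intron in the long form.
Wtap end of exon 6, chr17:12975283-12975312: aagtttacgcctgataggTAAacaaatcat
One base of the intron precedes the stop codon TAA, so that the reading frame of the short form ends inside the bases that open the intron of the long form. The coding sequence up to this point is shared over 452 nt. The short form has 151 codons and the long form 396, so that the short form holds 38.1% as many codons. The stop codons of the 2 forms lie 7824 bases apart on the genome.

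**Figure D1:**
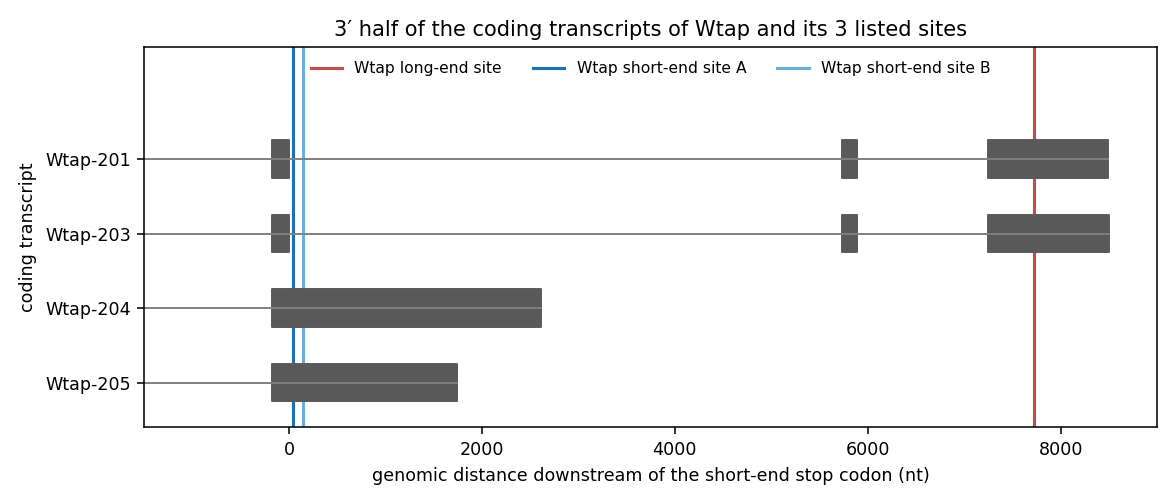
Exons (boxes) of the coding transcripts Wtap-201, Wtap-203, Wtap-204 and Wtap-205 by genomic distance in nt from the short-end stop codon, with the 3 listed sites of Wtap as vertical lines. The short-end sites cross exon 6 of Wtap-204 and Wtap-205 and the intron after exon 6 of Wtap-201 and Wtap-203. The long-end site crosses exon 8 of Wtap-201 and Wtap-203.

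No coding transcript holds the sites of both ends. Each of the 3 Wtap sites is held by 2 of the 8 transcripts that GENCODE marks as protein-coding, or 25%, and the 2 that hold the long-end site are not the 2 that hold the short-end sites. Several of the 8 are partial models, and with the transcripts that have an annotated stop codon alone the share was 40%. RefSeq gives 4 curated coding transcripts, of which 2 have the long end and 2 the short end. Of the sites on the whole list that a coding transcript holds, 5.30% (31 of 585) are held by 25% or fewer of the coding transcripts of their gene, and the median is 85.7%. Among genes with at least 5 coding transcripts this is 17.6% (24 of 136 sites).

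In the whole list 31 genes have more than 1 site, and in 24 of them every site could be placed on a coding transcript. Wtap is the 1 gene of these 24 in which no coding transcript holds all of them. Short-end sites A and B belong to a kind of site that is intronic in a complete coding transcript and lies in the last exon of those complete ones that hold it. There are 23 such sites among the 586 placed sites, or 3.92%, in 21 genes.

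The place of the Wtap sites bears on how their values were made. The authors measured the level before the pull-down by the INPUT reads of the whole gene, on all its exons joined. Which gene annotation they used is not given in the sources used here, so the lengths below are those of GENCODE M21. Downstream of exon 6, 2611 nt of exons are in short-end and not in long-end transcripts, and 1411 nt the reverse. Of the 2611 nt, 112 nt are also the last exon of Wtap-202, a coding transcript of 139 codons that splices exon 6 to a point beyond sites A and B and holds none of the 3 sites. The adjustment by gene uses 1 INPUT level for both ends, so a shift between the ends and a change of methylation at one end cannot be told apart from the list.

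All 4 sites lie close to a stop codon, but not on the same side of it. The midpoint of the long-end site lies 99 nt before the first base of the stop codon of Wtap-201, and that of the Mettl16 site 127 nt before the stop codon of Mettl16-201. Short-end sites A and B have their midpoints 43 nt and 143 nt after the stop codon of Wtap-204. Site A begins 19 nt and site B 119 nt after the first base of that codon. Thus the long-end site lies before the stop codon of its own form, in coding sequence. Short-end sites A and B both lie after the stop codon of theirs, in untranslated sequence.

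In the whole list, 586 sites could be placed relative to the nearest stop codon of a coding transcript that holds them. The median distance was 513 nt (quartiles 189 and 1154 nt). Of these sites, 26.6% (156 sites) lie within 200 nt, against 4 of the 4 sites of Wtap and Mettl16, and 44.5% (261 sites) lie within 400 nt. The share of 26.6% is the background of the list and the 4 sites come from 2 genes, so no test was made of it.

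**Figure D2:**
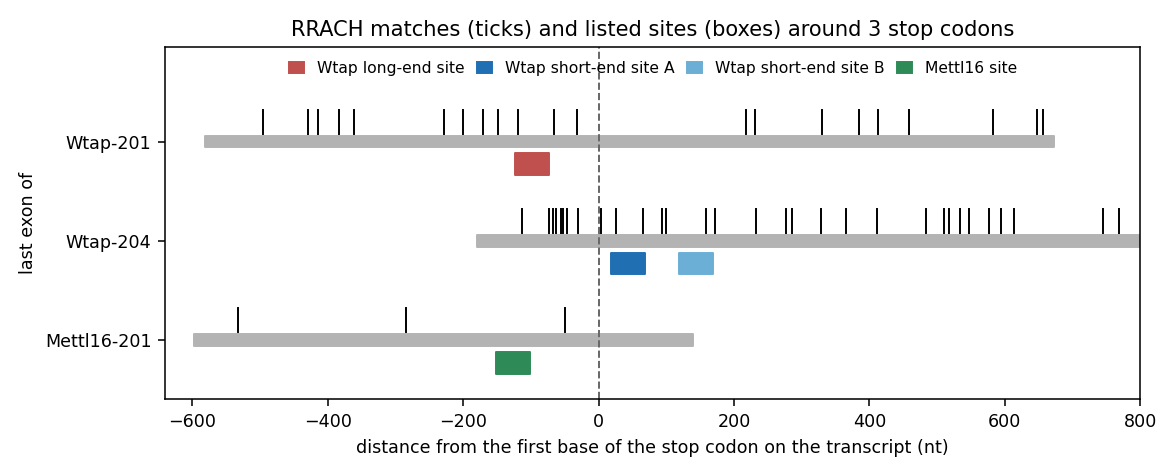
Last exons (grey) of Wtap-201, Wtap-204 and Mettl16-201 by distance in nt from the first base of the stop codon (dashed), with the third base of each RRACH match as a tick and the listed sites as boxes. The midpoints of the sites lie 99 nt and 127 nt before and 43 nt and 143 nt after the stop codon, and the last exon of Mettl16-201 has 3 matches.

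The last exons that hold the sites measure 1253 nt in Wtap-201, 2790 nt in Wtap-204 and 736 nt in Mettl16-201. In the first of these the midpoint of the site lies 482 nt after the start of the exon, in the second the midpoints lie 223 nt and 323 nt after it, and in Mettl16-201 470 nt. In the whole list, 61.3% (359 of 586 sites) lie in the last exon of every coding transcript that holds their midpoint, as all 4 sites here do.

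The long-end and short-end sites differ in the sequence around them. RRACH was found in 21 places in the last exon of Wtap-201, or 1.68 per 100 nt, and in 53 places in that of Wtap-204, or 1.90 per 100 nt. Within 400 nt of the stop codon the values were 1.62 per 100 nt at the long end and 3.44 per 100 nt at the short end, where the window is cut to the 581 nt that belong to the exon. These 581 nt include the 179 nt of exon 6, which the long form also has and which hold some of the matches. The higher value is thus not of short-end sequence alone. All 622 sites together hold 1.74 matches per 100 nt. These densities describe the reference sequence and say nothing about which adenosines carry m6A.

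Sites A and B are separated by 1 unlisted bin of 50 nt, which itself holds 2 RRACH matches. The authors merged adjacent bins that passed their threshold, so the bin between did not pass it or was filtered out. Of the 28 pairs of sites of the same gene on a shared coding transcript, 5 pairs, in 5 genes, have midpoints 100 nt apart (within 5 nt). That 0 pairs are closer follows from the merging, which leaves separate sites no closer than this on the joined exons. A and B are 1 of these 5 pairs.

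Mettl16 has its single site in sequence that its full-length forms share. Mettl16-201 has 593 codons and Mettl16-205 has 553, since the latter skips exon 7 of the former (120 nt, 40 codons), and both use the same stop codon. Their 3′UTRs differ, with 136 nt in Mettl16-201 and 10767 nt in Mettl16-205, so that the midpoint of the site lies 265 nt from the 3′ end of one and 10896 nt from that of the other. The site is held by 2 of the 3 coding transcripts of GENCODE, the remaining one being a partial model of 450 nt. It is also held by 7 of the 7 coding transcripts of RefSeq, of which only 1 is curated. A transcript marked for nonsense-mediated decay, Mettl16-202, holds the same bases as 3′UTR.

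Mettl16 is the member without the motif. Its site has 0 RRACH matches, and with 25 nt added on each side there was still no match. The last exon of Mettl16-201 has 3 matches in 736 nt, or 0.408 per 100 nt. In Mettl16-205 the last exon is longer, with 159 matches in 11367 nt, or 1.40 per 100 nt. Within 400 nt of the stop codon the values were 0.371 per 100 nt in Mettl16-201 and 0.749 per 100 nt in Mettl16-205. The match nearest to the site, GAACC, lies in both of these exons. It has its A 77 nt from the midpoint of the site and 50 nt before the stop codon. In the whole list 39.2% of sites (244 of 622) have no RRACH match, and 16.4% (96 of 586) have none with 25 nt on each side. The Mettl16 site is thus of a common kind on its own and of a less common kind with its flanks. The 3 Wtap sites have 1, 2 and 1 matches, and 60.8% of all sites (378 of 622) have at least 1.

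**Figure D3:**
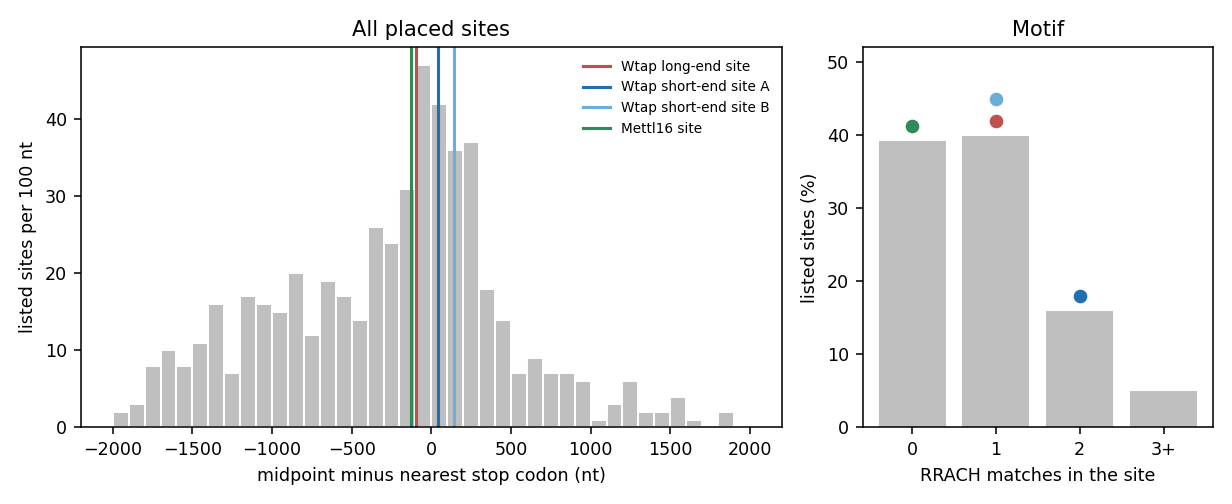
Left, midpoints of listed sites by distance in nt from the nearest stop codon, in steps of 100 nt and within 2000 nt, with the 4 sites of Wtap and Mettl16 as lines. Right, percent of all 622 sites by number of RRACH matches, with 1 point per site of Wtap and Mettl16. The Mettl16 site is among the 39.2% of sites with 0 matches, and the 4 lines lie in the central peak.

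Base composition set the short-end sites apart from each other. Site A has 56% G and C and site B 34%, while the long-end site has 52% and the Mettl16 site 46%. The median of all sites is 52% (quartiles 44% and 60%).

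The Wtap sites have copies elsewhere in the genome and the Mettl16 site has none. Sites A and B each have 2 other matches and the long-end site has 1, counted at an identity of at least 95% over at least 95% of the site. In the whole list 11.4% of sites (71 of 622) have another match. One match of A and one of B are identical over all 50 nt. In the whole list 7.07% of sites (44 of 622) have another match that is identical over the whole site. The identical copy of A lies on chromosome 2 from 179177897 to 179177946 and that of B from 179177997 to 179178046, with the same spacing as in Wtap. The second copies of both lie on chromosome 8, with an identity of 98%.

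RefSeq places the 2 copies on chromosome 2 inside the pseudogene Gm14292 and the 2 on chromosome 8 inside Gm7381, while the GENCODE models of these genes do not reach them. GENCODE classes both as processed pseudogenes, which are made when a spliced mRNA is copied back into the genome. The copy on chromosome 2, Gm14292, aligned with Wtap-204 over 1489 nt with an identity of 99.5%, across 4 exon joins and into the 3′UTR of the short form. The copy on chromosome 8, Gm7381, aligned over 1517 nt with an identity of 96.6%, across 5 exon joins. Gm9068 on chromosome 10 has an identity of 91.9% over 872 nt. All 3 alignments run at least 398 nt past the point where the long form is spliced, which is base 576 of Wtap-204. With Wtap-201 itself the same 3 pseudogenes aligned at most 7 nt past this point.

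The copy of the long-end site belongs to another pseudogene, Gm9390, on chromosome 17. It aligned with Wtap-201 over 675 nt from the first base of exon 7, with an identity of 95.3% and across 1 exon join, and matched the long-end site at 98%. The bases that directly precede it on chromosome 17, from 82354695 to 82355391, aligned with positions 1470 to 2162 of Wtap-204, in the short-end 3′UTR, over 701 nt with an identity of 93.3%. Sites A and B lie outside this stretch. Of the 3 Wtap sites, A and B have an exact copy over the whole site and the long-end site does not.

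How much of each transcript has an exact copy was counted in windows of 50 nt, the read length, moved by 10 nt. In the last exon of Wtap-204, 99 of 274 windows had an exact copy outside the gene, or 36.1%, against 21 of 121 windows, or 17.4%, in that of Wtap-201. In the 3′UTR it was 86 of 256 windows, or 33.6%, in Wtap-204 and 12 of 62 windows, or 19.4%, in Wtap-201. Before the last exon the shares were higher, with 21 of 40 windows, or 52.5%, in Wtap-204 and 28 of 80 windows, or 35%, in Wtap-201. In the whole of Mettl16-201 it was 0 of 203 windows. Reads of 50 nt from sites A and B and from Gm14292 cannot be told apart by sequence. How such reads were counted is not given in the sources used here, and their part in the listing of sites A and B was not tested. The long-end and Mettl16 sites have no exact copy over the whole site. Windows of Wtap-201 with midpoints 135, 125 and 115 nt before the stop codon have an exact copy on 1 chromosome, however. These windows overlap the long-end site and its AGACT match, so some reads there can also match a copy. The part of such reads in the listing of the long-end site was not tested.

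**Figure D4:**
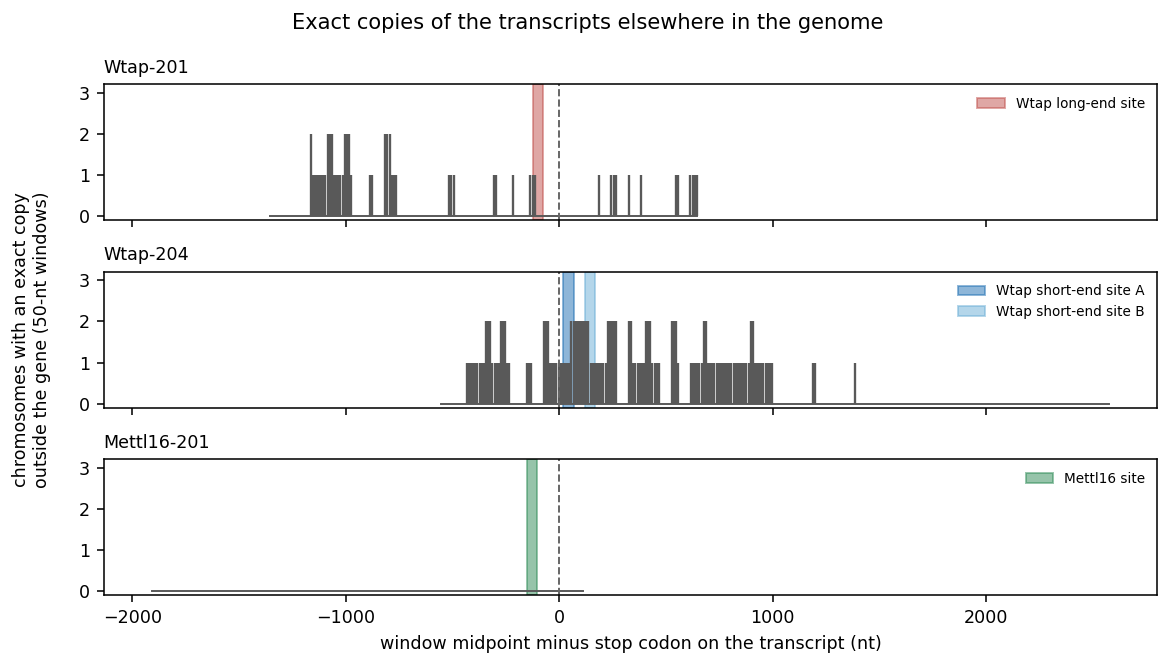
Number of chromosomes with an exact copy outside the gene for windows of 50 nt along Wtap-201, Wtap-204 and Mettl16-201, by distance in nt of the window's midpoint from the stop codon (dashed), with the listed sites shaded. Exact copies cover short-end sites A and B in Wtap-204, and 0 of the 203 windows of Mettl16-201 have one.

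Other genes of the m6A machinery were counted from lists of 28 genes, of which 5, or 17.9%, have a listed site, Wtap and Mettl16 included. Of the 21877 protein-coding genes of GENCODE, 2.61% (571 genes) have one, a share that also counts genes not expressed in liver. Which genes were tested is not given by the list, so no share among tested genes could be set beside the counts, and nothing particular to the lists is read from them. Of the 6 genes of Wtap and its partners in the methyltransferase complex (Wtap, Virma, Zc3h13, Rbm15, Rbm15b and Cbll1), 1 has a listed site, which is Wtap. Of the 4 other adenosine methyltransferases of RNA on the lists (Mettl16, Mettl5, Zcchc4 and Pcif1), again 1 has a site, Mettl16. The catalytic core, Mettl3 and Mettl14, has 0 of 2, and the erasers Fto and Alkbh5, which remove the mark, 0 of 2. Mettl14 is itself the gene deleted in the knockout, so its absence from the list cannot be read like that of the other genes. The genes of S-adenosylmethionine supply (Mat1a, Mat2a, Mat2b and Ahcy), which make and recycle the methyl donor and include a known target of METTL16, have 0 of 4. Of 10 readers, proteins that bind the mark, 3 have a site: Ythdf1, Ythdf2 and Ythdf3. Their sites lie in the CDS with midpoints 145, 352 and 1234 nt before the nearest stop codon, so that 1 of the 3 lies within 200 nt, as the 4 sites of Wtap and Mettl16 do. A gene without a listed site may also have had too few IP reads to be tested, so its absence from the list does not show that its methylation did not differ.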

How the data were processed

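m6A-seq libraries from livers of 4 wild type and 4 Mettl14 knockout mice were grouped by their labels. Per the labels and the paper's methods, the authors aligned reads with Hisat2 (genome mm10), counted them per gene in 50 nt bins along joined exons, adjusted IP counts for IP efficiency and for INPUT reads of the gene, filtered bins with low IP counts, tested genotype in RADAR by a Poisson model with random effects and merged adjacent significant bins. The deposited table gives positions and exon blocks, and also the logFC and p-value of the authors' own comparison. Neither of the last was used here, so size and sign of the changes are not described, and the deposited list was treated as a set of positions. No test was run. Depth, the FDR threshold, tool versions and the treatment of reads that map to several places are not given in the sources used here.

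Sites were placed on the coding transcripts of GENCODE M21. Of 90 inner block edges, 90 lay on exon edges when counted from 1. Of 622 sites, 585 matched by symbol and 21 by an older symbol, and 586 were placed by their midpoint. Distances use the nearest stop codon among transcripts that hold the midpoint. Copies were searched on the assembled chromosomes with BLAST+ 2.17.0 (word size 16), and sequences were read with pysam 0.24.0 under Python 3.11.15. Placement and motif search were tested on simulated transcripts. The genes, the lists and the comparisons were chosen with earlier results of these data known, and every site of both genes is named.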

Additional observations from a re-analysis of the deposited data

How the results depend on the processing

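The alternatives changed annotation, point, motif and identity, and a mouse could not be left out because the list has no values per mouse. No paired analysis was possible because no value per sample is given and the results come from no test. On the longest coding transcript of each gene 3 of the 4 sites could be placed, since the long-end site is not on Wtap-204, and with every coding transcript, or with RefSeq, 4 of 4. The share of coding transcripts that hold each Wtap site rose from 25% to 40% with transcripts that have a stop codon and to 50% in RefSeq. Both were chosen after seeing the data, and fewer partial models are counted in them. With GGAC in place of RRACH, 26.4% of all sites had a match and 2 of the 4 sites, Mettl16 among them. With an identity of 100% over the whole site, 2 of the 4 sites had a copy, against 3 of 4 otherwise. Of all listed sites, 7.07% had a copy at 100%, against 11.4% at 95% over at least 95% of the site. Measured from either edge of a site, each distance to the stop codon kept its sign. How deeply the sites were sequenced is unknown.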
